A study of Homo sapiens with 32 samples.

Results

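The mRNAs of 10 subunits of eukaryotic initiation factor 3 (EIF3A, EIF3B, EIF3D, EIF3E, EIF3F, EIF3G, EIF3H, EIF3I, EIF3K and EIF3M) were followed in HEK293 cells incubated with 4-thiouracil. The 10 were chosen by symbol, with the change of this family from 0 min already known, from a table of 32738 gene entries, and all 10 passed the filter on low counts that left 10439 genes for testing. Within them EIF3I was selected on its measured counts at 0, 5, 15 and 30 min in these same data, in which its change from 0 min stood apart, and it is set against the other 9. The contrasts of the 10 subunits with 0 min, and all contrasts of EIF3I, are therefore given as a description and support nothing, and the number of subunits past the threshold against 0 min is printed only beside the share of all genes. EIF3I was far lower at 5, 15 and 30 min than at 0 min, by 16.8-, 11.6- and 20.4-fold, whereas the other 9 ranged at 5 min from 3.38-fold lower (EIF3K) to 1.34-fold higher (EIF3F).

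HEK293 is an immortalised human kidney cell line, and 4-thiouracil is a uracil analogue that cells can build into RNA made during the incubation. The 4 groups are HEK293 cells at 0, 5, 15 and 30 min, each with 2 biological replicates, called cultures here, and no other treatment or genotype is named. Each culture is the sum of 4 libraries from 2 cDNA preparations. The library titles begin with TTSeq. Beyond this the labels do not say whether RNA carrying the analogue was purified, or whether the 0 min cells met it. A lower value at 5 min can therefore stand for less RNA or for another pool of RNA, and these cannot be told apart. Words such as fell and rose describe only a difference in measured level. As the data are from bulk RNA and levels are relative, fewer cells holding a given mRNA and less of it per cell cannot be told apart either. Nothing in the labels says that the cultures were grown separately, and p-values then measure only the spread between these samples.

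eIF3 is the largest of the initiation factors. It binds the small ribosomal subunit, helps to bring the initiator tRNA complex and the mRNA to it, and keeps the large subunit away until a start codon is found. A core of subunits with PCI or MPN domains (EIF3A, EIF3C, EIF3E, EIF3F, EIF3H, EIF3K, EIF3L and EIF3M) shares its plan with the lid of the proteasome and with the COP9 signalosome. EIF3I, a WD-repeat protein folded as a beta-propeller, sits with EIF3B and EIF3G in a module at the edge of the complex, and EIF3D can bind the mRNA cap.

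Culture totals ranged from 776871 to 1396056 counts, and library totals from 188686 to 381471. The 16 pairs of libraries from one cDNA differed by less than sampling noise (a ratio of chi-square to degrees of freedom from 0.327 to 0.594), against 1.14 to 2.29 for the 32 pairs from different cDNAs of a culture, so libraries were not treated as samples. LIN28B, which HEK293 cells express, had 19 to 241 counts in each of the 8 cultures and NEFM 2 to 18. PAX2 had 5 counts and INA 4 over all cultures, and NEFL was not matched. PTPRC and CD74 (leukocytes), COL1A2 and DCN (fibroblasts) and ALB (hepatocytes) had 0 counts in every culture, while APOA1, also a hepatocyte marker, had 62 counts over 7 cultures.

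The DNA around the start of 6 of the 10 genes was found in the RefSeq promoter table (GRCh38.p14), and is shown because mRNAs that begin with an unbroken run of pyrimidines, called TOP mRNAs, form a group whose translation is controlled together and which holds several eIF3 subunits. Each line runs 5′ to 3′ on the gene's own strand, from 50 bases before the start to 20 bases from the start on, and the capitals mark the longest run of C and T within 20 bases either side of the start.
EIF3I (chr1:32222357-32222426, + strand): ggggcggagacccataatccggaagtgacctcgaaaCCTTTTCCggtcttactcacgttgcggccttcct
EIF3B (chr7:2354777-2354846, + strand): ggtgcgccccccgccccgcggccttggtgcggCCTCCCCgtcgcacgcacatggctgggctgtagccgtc
EIF3K (chr19:38619138-38619207, + strand): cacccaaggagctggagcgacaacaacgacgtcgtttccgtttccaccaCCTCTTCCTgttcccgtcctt
EIF3M (chr11:32583781-32583850, + strand): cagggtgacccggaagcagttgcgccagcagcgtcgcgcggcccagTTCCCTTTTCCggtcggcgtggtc
EIF3D (chr22:36529147-36529216, - strand): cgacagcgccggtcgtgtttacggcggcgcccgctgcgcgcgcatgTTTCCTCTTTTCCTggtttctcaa
EIF3F (chr11:7987287-7987356, + strand): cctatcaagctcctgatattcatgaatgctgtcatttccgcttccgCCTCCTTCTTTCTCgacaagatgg
The 2 subunits with the longest runs, EIF3D and EIF3F, each held 14 pyrimidines in a row, a length reached within 20 bases of the start by 2.29% of 27305 promoters. EIF3M held 11 (5.82% of promoters as long), EIF3K 9 (11.8%), EIF3I 8 (17.3%) and EIF3B 7 (25.3%). In EIF3I the run began 14 bases before the annotated start, and within 10 bases of the start its longest run was 4, a length that 57.6% of promoters reach. In EIF3B the run began 18 bases before the start. Within 10 bases its longest run was 2, a length that 96.9% of promoters reach. EIF3D, EIF3F, EIF3K and EIF3M kept the same longest run within 10 bases. EIF3A, EIF3E, EIF3G and EIF3H were not matched.

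Motifs were searched by their letters on both strands of the whole 300-base promoter, and a match is a description of the sequence only. The ETS core CCGGAAG stood in EIF3I and EIF3M, and in 10.7% of all promoters. In the EIF3I line above it is the stretch ccggaag that precedes the capitals. CCAAT stood in 4 of the 6 (EIF3D, EIF3F, EIF3K and EIF3M, 35.7% of promoters), GGGCGG in all but EIF3F (44.6%), and CACGTG in EIF3F and EIF3K (7.43%). TATAAA, which 12% of all promoters hold, stood in none of the 6.

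EIF3I was counted 1355 and 991 times in cultures 1 and 2 at 0 min, 77 and 137 times at 5 min, 167 and 241 times at 15 min, and 100 and 155 times at 30 min. Scaled by TMM, which corrects for library size and composition, these are 1638 and 1531 CPM (the count of the gene relative to the scaled total of its culture) at 0 min, 90.9 and 96.8 at 5 min, 108 and 165 at 15 min, and 60.1 and 95.3 at 30 min. Both cultures at 0 min lay above every later culture, with the 15 min pair next and the 5 and 30 min pairs overlapping. Between 0 and 5 min the mean level went from 1584 ± 75.7 to 93.8 ± 4.19 CPM (SD, n = 2), a log2 difference of -4.07 (SE 0.23). The log2 difference from 0 min was -3.54 at 15 min and -4.35 at 30 min. Counted from the lowest of the 10439 genes tested, EIF3I ranked 22 at 5 min, 10 at 15 min and 4 at 30 min. Next among the subunits was EIF3K at 5 min (rank 967), EIF3G at 15 min (796) and EIF3K again at 30 min (275). In single libraries EIF3I had 877 to 1157 CPM of the library total at 0 min, and at most 130 at 5 min, 213 at 15 min and 124 at 30 min, so the lowest library at 0 min lay above the highest of all later ones.

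**Figure D1:**
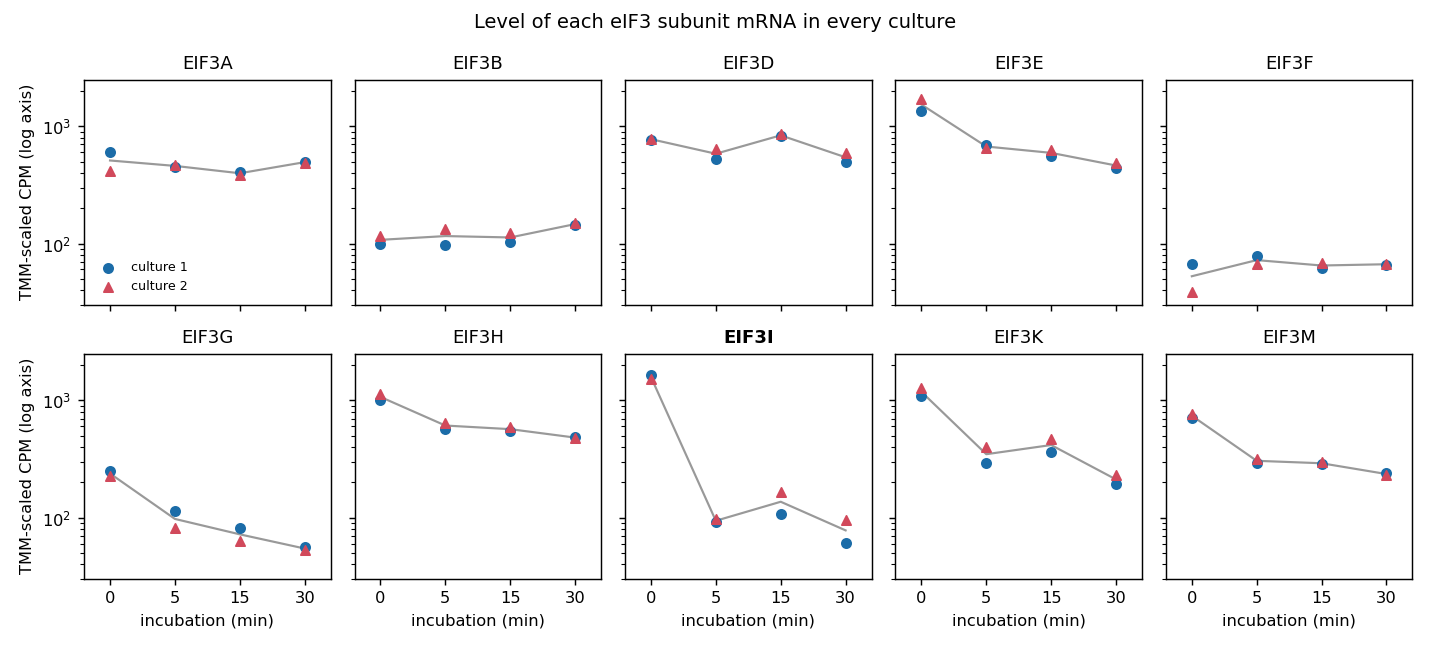
TMM-scaled CPM (log axis) of each of the 10 subunit mRNAs against incubation time (min, evenly spaced), with 1 point per culture and a line through the means of 2 cultures. EIF3I starts at 1584 CPM and stays between 60.1 and 165 CPM in all 6 later cultures, while EIF3A, EIF3B and EIF3F stay near their starting levels.

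EIF3B and EIF3G, the module partners of EIF3I, did not share its course. EIF3B, the scaffold of the module, stood at 99.1 and 116 CPM at 0 min, 98.0 and 134 at 5 min, 102 and 123 at 15 min, and 143 and 150 at 30 min. Its cultures at 5 and 15 min overlapped those at 0 min, and both at 30 min lay above them, with log2 differences from 0 min of 0.13, 0.07 and 0.45. EIF3G, an RNA-binding subunit, stood at 248 and 227 CPM at 0 min, 113 and 81.2 at 5 min, 80.8 and 62.9 at 15 min, and 55.9 and 52.9 at 30 min. It was lower at each later time without overlap with 0 min, and its log2 differences were -1.31, -1.72 and -2.13. The 3 genes of the module therefore covered a span from -4.07 (EIF3I) to 0.13 (EIF3B) at 5 min.

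Among the PCI subunits, EIF3K (a small subunit at the edge of the core) was the next lowest after EIF3I at 5 min. It stood at 1096 and 1271 CPM at 0 min, 294 and 401 at 5 min, 366 and 466 at 15 min, and 192 and 231 at 30 min. All 6 later cultures of EIF3K lay below both at 0 min, and its log2 differences were -1.76, -1.51 and -2.48. EIF3E, which was found as the site of integration of a mouse tumour virus, stood at 1345 and 1725 CPM at 0 min, 688 and 658 at 5 min, 557 and 630 at 15 min, and 440 and 486 at 30 min. EIF3M stood at 709 and 769 CPM at 0 min, 293 and 317 at 5 min, 285 and 296 at 15 min, and 240 and 230 at 30 min. EIF3E and EIF3M had similar log2 differences at 5 min (-1.19 and -1.27) and at 30 min (-1.73 and -1.65), again with no overlap with 0 min. EIF3A, the largest subunit and a scaffold of the core, stood at 606 and 417 CPM at 0 min, 447 and 472 at 5 min, 409 and 387 at 15 min, and 498 and 491 at 30 min. Its pair at 0 min lay farther apart than any later pair and spanned both cultures at 5 and at 30 min, with the 15 min pair just below, and its log2 differences were -0.16, -0.37 and -0.05.

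The MPN subunits EIF3F and EIF3H differed from each other. EIF3H stood at 1009 and 1131 CPM at 0 min, 575 and 645 at 5 min, 543 and 593 at 15 min, and 484 and 478 at 30 min, with log2 differences of -0.81, -0.91 and -1.15. EIF3F was the least abundant of the 10 at 0 min, with 55 and 25 counts, or 66.5 and 38.6 CPM. It stood at 77.9 and 66.4 CPM at 5 min, 61.4 and 68.4 at 15 min, and 66.1 and 67.0 at 30 min, and each later pair overlapped the pair at 0 min. The log2 differences of EIF3F were 0.42, 0.28 and 0.31, the first with SE 0.29.

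EIF3D, the cap-binding subunit, stood at 769 and 786 CPM at 0 min, 531 and 637 at 5 min, 822 and 855 at 15 min, and 500 and 589 at 30 min. It was the single subunit whose pair at 15 min lay above the pair at 0 min while its pairs at 5 and 30 min lay below. Its log2 differences were -0.41, 0.11 and -0.51.

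In all, 6 of the 10 subunits were called lower at 5 min (adjusted p under 0.05, edgeR's quasi-likelihood F test), 6 at 15 min and 7 at 30 min, and 0 were called higher. Of all genes tested, 54.7% were called at 5 min (28.7% higher and 26% lower), 54.4% at 15 min (29.8% higher and 24.6% lower) and 55.9% at 30 min (32.1% higher and 23.8% lower). By total counts alone 5 subunits were called lower at each time, and 3 were called higher at 5 min and 4 at 15 and 30 min. Under that scaling 4461 of all 10439 genes were called higher and 1448 lower at 5 min. The numbers were 4901 and 1307 at 15 min, and 5622 and 1331 at 30 min. As the family was chosen with this contrast known, nothing is read from these counts. The median log2 difference of the other 9 subunits was -0.81, -0.91 and -1.15, beside 0.10, 0.19 and 0.35 for all genes tested. The sign of the smaller differences depends on the scaling: by total counts alone the median of all genes moves to 0.83, 0.96 and 1.22 and that of the other 9 subunits to -0.069, -0.13 and -0.27, and EIF3A (0.57) and EIF3D (0.33) turn positive at 5 min. EIF3I remains at -3.34 at 5 min under that scaling, -2.77 at 15 min and -3.47 at 30 min.

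**Figure D2:**
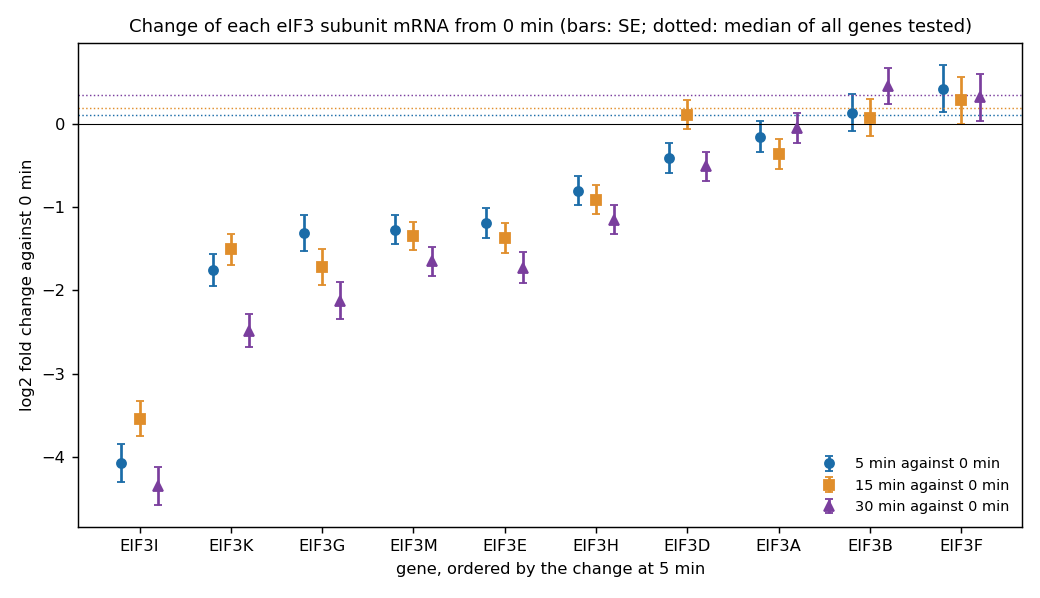
Log2 fold change from 0 min (y axis) of the 10 subunits in order of their change at 5 min, with 1 marker for each later time, bars for the standard error and dotted lines for the median of all 10439 genes tested at each time. EIF3I lies between -3.54 and -4.35, and the lowest point of any other subunit is EIF3K at 30 min (-2.48).

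A ratio taken within each culture does not depend on how libraries are scaled. EIF3I divided by the geometric mean of the other 9 subunits was 3.62 and 3.47 at 0 min, 0.340 and 0.342 at 5 min, 0.416 and 0.599 at 15 min, and 0.271 and 0.412 at 30 min. EIF3I thus passed from above the mean of its partners at 0 min to below it in all 6 later cultures. The ratio was 10.4-fold lower than at 0 min at 5 min, 7.10-fold lower at 15 min and 10.6-fold lower at 30 min. Taken for each other subunit in turn in the same way, the log2 ratio at 5 min less that at 0 min ran from -0.83 (EIF3K) to 1.72 (EIF3F), against -3.38 for EIF3I.

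Of all counts on the 10 genes, EIF3I took 21.6% and 19.1% at 0 min, 2.83% and 2.76% at 5 min, 3.24% and 4.52% at 15 min, and 2.24% and 3.32% at 30 min. The mean share went from 20.3% ± 1.76 (SD, n = 2) at 0 min to 2.80% ± 0.0517 at 5 min. The 10 genes together had 2718 to 6276 counts per culture. Each later pair lay far below the pair at 0 min, and the later pairs differed little from each other beside that gap. With 2 cultures a time an exact permutation test cannot go below p = 0.333, and none was run on these ratios.

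**Figure D3:**
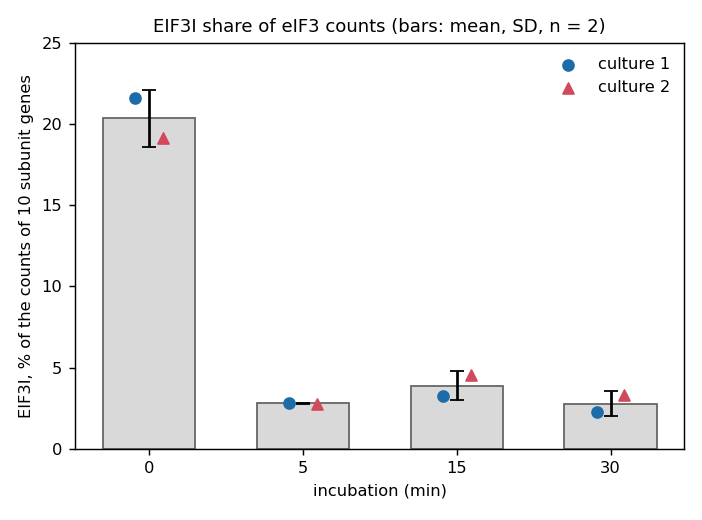
Share of EIF3I in the counts of the 10 subunit genes (%, y axis from 0) at each incubation time (min), with bars for the mean of 2 cultures, lines for the SD and 1 point per culture. EIF3I takes 20.3% at 0 min and between 2.24% and 4.52% in the later cultures.

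Levels of different genes can be set side by side per kilobase of annotated transcript, on the assumption that counts spread along the transcript. The extraction method cited by the labels tags transcript ends, and for such counts the undivided CPM would be the level. Per kilobase, EIF3K (1370 CPM per kb), EIF3I (1087) and EIF3E (995) were the highest at 0 min, followed by EIF3D (361), EIF3H (270), EIF3G (215), EIF3M (146), EIF3A (76.9), EIF3F (41.9) and EIF3B (35.2). At 30 min EIF3I, at 53.3 CPM per kb, stood level with EIF3F (53.1), EIF3G (49.3), EIF3B (47.9) and EIF3M (46.5), and EIF3E was highest at 300 CPM per kb, with EIF3D (253) and EIF3K (245) next. Among neighbours in the order at 0 min, the cultures of EIF3I and EIF3E overlapped, as did those of EIF3F and EIF3B, and the others did not. At 30 min the range of EIF3I, at 77.7 ± 24.9 CPM before division by length (SD, n = 2), took in EIF3F, EIF3G, EIF3B and EIF3M, and those of EIF3D and EIF3K overlapped.

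Differences among 5, 15 and 30 min were tested for the other 9 subunits, and are a description for EIF3I. From 5 to 15 min 0 of the other 9 were called in either direction, beside 1.55% of all genes (1.03% higher and 0.517% lower). EIF3I differed by 0.53 on the log2 scale (SE 0.23) over this step, and EIF3D by 0.52 (adjusted p = 0.148, edgeR). From 5 to 30 min EIF3G fell by 0.81 on the log2 scale (SE 0.23, adjusted p = 0.0162, edgeR), EIF3K fell by 0.73 (SE 0.19, adjusted p = 0.0112) and EIF3E fell by 0.54 (SE 0.18, adjusted p = 0.0462). Both cultures at 30 min were below both at 5 min for each of the 3 genes. That is 3 of 9 lower and 0 of 9 higher, beside 12.4% of all genes called, 6.52% lower and 5.88% higher. EIF3M (-0.38, adjusted p = 0.158), EIF3H (-0.34, adjusted p = 0.209) and EIF3B (0.32, adjusted p = 0.338) did not pass, and EIF3I, at -0.28 (SE 0.23), had overlapping cultures. The 3 calls are fragile: with libraries scaled by total counts EIF3G (adjusted p = 0.0711) and EIF3E (adjusted p = 0.122) were no longer called, and without culture 1 at 30 min none of the 3 was (adjusted p = 0.102 for EIF3G, 0.223 for EIF3K and 0.362 for EIF3E). Leaving out either culture at 5 min, or culture 2 at 30 min, each left 1 of the 3 called.

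From 15 to 30 min EIF3K fell by 0.98 on the log2 scale (SE 0.19, adjusted p = 0.00133, edgeR) and EIF3D fell by 0.62 (SE 0.17, adjusted p = 0.0278). Both cultures at 30 min were below both at 15 min for each gene, making 2 of 9 lower and 0 of 9 higher, beside 5.04% of all genes called, 2.78% lower and 2.26% higher. EIF3B (0.38, adjusted p = 0.357) and EIF3A (0.31, adjusted p = 0.401) had positive differences that did not pass. EIF3I differed by -0.81 over this step (SE 0.22), again with both cultures at 30 min below both at 15 min, and by -0.45 without culture 2 at 15 min and -0.51 without culture 1 at 30 min. EIF3D was no longer called without culture 2 at 15 min (adjusted p = 0.119), culture 1 at 30 min (0.486) or culture 2 at 30 min (0.122), nor by total counts (0.0511), and EIF3K was not called without culture 1 at 30 min (0.0920).

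Of the eIF3 subunits outside these 10, EIF3J, a loosely bound subunit, and EIF3L, a PCI subunit that pairs with EIF3K, could be tested. Both were also chosen with earlier results of these data known, so their differences from 0 min are a description. EIF3J stood at 91.6 CPM at 0 min and at 40.0, 41.7 and 45.9 CPM at 5, 15 and 30 min, with log2 differences of -1.25, -1.13 and -0.99 (adjusted p = 0.00103, 0.0018 and 0.00485, edgeR). EIF3L stood at 304 CPM at 0 min and at 164, 174 and 148 CPM later, with log2 differences of -0.90, -0.81 and -1.04 (adjusted p = 0.000107, 0.000286 and 9.69e-06). By total counts alone none of these 6 differences was called (EIF3J -0.51, -0.35 and -0.11, EIF3L -0.16, -0.036 and -0.16), and EIF3J was not called at 5 min without culture 2 at 5 min (-0.76, adjusted p = 0.0837) or at 30 min without culture 2 at 0 min (-0.77, adjusted p = 0.0600). The log2 difference of EIF3I from 0 min was more negative than that of either at each time. EIF3C and EIF3CL, which are near-identical copies, had 3 and 5 counts over all cultures, too few to test. Their counts are uncertain because a read can match both copies, and how such reads were counted was not examined.

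Of the annotated transcripts, those of EIF3I and EIF3F are alike in size. The EIF3I transcript has 1458 bases in 11 exons over 9.23 kb of the genome, with 23% U, and that of EIF3F has 1254 bases in 8 exons over 8.85 kb, with 21.5% U. U is the base that 4-thiouracil replaces. Among the 10 the transcript of EIF3M was richest in it (32.8% U, log2 difference at 5 min -1.27). That of EIF3G was poorest (15.9% U, -1.31). The gene span ran from 4.89 kb (EIF3G) to 114 kb (EIF3H). EIF3I is at neither end of the 10 for length, span or U content. Length and U content are those of the spliced transcript. Whether length, span or U content bears on the changes was not tested.

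The gene next to EIF3I, TMEM234, lies head to head with it on the opposite strand and overlaps it by 432 bases in GENCODE 29, though by 0 in RefSeq. It had 20 and 4 counts at 0 min, 2 and 6 at 5 min, 11 and 9 at 15 min, and 8 and 8 at 30 min. Its log2 difference was -2.14 (SE 0.86, adjusted p = 0.0334, edgeR) at 5 min, -1.22 (adjusted p = 0.175) at 15 min and -1.66 (adjusted p = 0.0673) at 30 min, at levels far below those of EIF3I. The cultures at 0 and 5 min overlapped, and the call at 5 min was lost in most alternatives: the difference was -0.79 without culture 1 at 0 min (adjusted p = 0.630), and the call was also lost with any culture at 5, 15 or 30 min left out, by total counts alone (-1.43, adjusted p = 0.162) and with DESeq2 (adjusted p = 0.0771). MTMR9LP, on the opposite strand and overlapping EIF3I by 4511 bases in RefSeq but 0 in GENCODE 29, was not matched in the table. FAM167B, on the other side, had 0 counts in every culture. No source used here names the strand that was counted, so reads of overlapping genes cannot be told apart.

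Genes whose course was most like that of EIF3I were found by the distance between log2 CPM values, each less its own mean at 0 min, over the 8 cultures and 8658 genes with a mean of at least 10 CPM. The nearest was NABP2, which encodes a single-stranded DNA binding protein, at a distance of 1.5. It stood at 128 CPM at 0 min and at 16 CPM at 15 min, with its lowest level, 7.62 CPM, at 30 min. SLC50A1, a sugar transporter, followed at 1.99, C9orf78 at 2.39, ISY1, a splicing factor, at 2.47, NME6, of the nucleoside diphosphate kinase family, at 2.75, and RBM3, a cold-inducible RNA-binding protein, at 2.76. Their log2 differences at 5 min lay between -3.78 (SLC50A1) and -3.06 (NME6), all less negative than that of EIF3I. No eIF3 subunit was among them: EIF3K, the nearest, was at 5.13 and rank 454, EIF3G was at 5.76 and rank 880, and EIF3F, the farthest, was at 10.9 and rank 4712. The 8 points of each distance share the cultures and their depth.

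**Figure D4:**
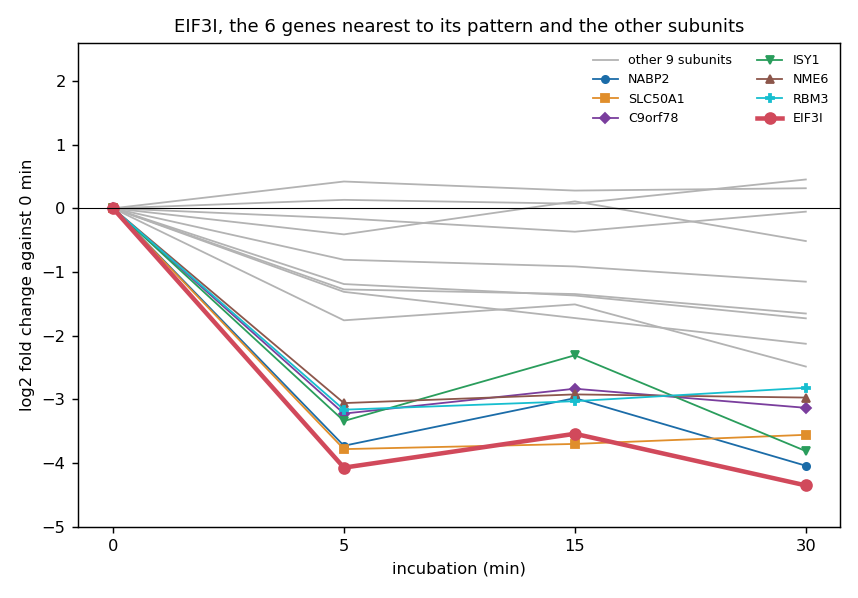
Log2 fold change from 0 min (y axis) at each time (min, evenly spaced) of EIF3I, the 6 genes nearest to it in course and the other 9 subunits in grey. At 5 min the 6 genes lie between -3.78 and -3.06, between EIF3I (-4.07) and the lowest other subunit, EIF3K (-1.76).

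The other initiation factors give the setting in which eIF3 works. Their lists were chosen with earlier results of these data known, so their changes from 0 min are a description. Of 37 listed genes 36 could be tested, and 4 rose and 19 fell from 0 to 5 min, 3 rose and 19 fell to 15 min, and 5 rose and 21 fell to 30 min. Of all genes tested 28.7% were called higher and 26% lower at 5 min, with 29.8% and 24.6% at 15 min and then 32.1% and 23.8% at 30 min. For the list, the median log2 difference was -0.94, -0.87 and -0.91. By total counts alone these medians were -0.20, -0.12 and -0.03, and 9 genes rose and 12 fell at 5 min. Under that scaling 4461 of all 10439 genes were called higher and 1448 lower at 5 min. The counts in the smaller groups below are to be read beside the same shares of all genes. No listed initiation factor came as low as EIF3I at 5 min, the lowest being EIF2B4 at -2.03.

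Of the 13 factors of start codon choice and initiator tRNA delivery 0 rose and 9 fell from 0 to 5 min, and 3 rose and 7 fell by total counts alone. EIF1, which guards against wrong start codons and was the most abundant, stood at 1537 and 1820 CPM at 0 min and 491 and 527 at 5 min, and fell by 1.72 on the log2 scale (SE 0.18, adjusted p = 9.4e-10, edgeR). EIF1B, its close relative, fell most, by 1.98. EIF5B, the GTPase of subunit joining, had a difference of 0.04 and EIF2S3, the gamma subunit of eIF2, one of 0.28, and neither passed (adjusted p = 0.874 and 0.368), though by total counts alone both were called higher (EIF5B 0.77, adjusted p = 8.07e-05, and EIF2S3 1.01, adjusted p = 0.00138). Between 5 and 30 min EIF1 then rose by 0.81 (adjusted p = 0.00226) while EIF5B fell by 0.95 (adjusted p = 0.000355). Without culture 1 at 30 min the step of EIF1 was 0.75 (adjusted p = 0.0610). Of the 5 subunits of eIF2B, which recharges eIF2 with GTP, 4 fell from 0 to 5 min, from EIF2B4 (-2.03) to EIF2B3 (-0.63), and 2 did by total counts alone. EIF2B3 turned to 0.11 by total counts alone and was not called without culture 2 at 5 min (-0.46, adjusted p = 0.109).

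Of 14 factors of the cap and its helicase tested, 4 rose and 3 fell from 0 to 5 min, beside 28.7% higher and 26% lower of all genes. By total counts alone 6 rose and 2 fell, beside 4461 higher and 1448 lower of all 10439 genes. EIF4A1, the main helicase, fell by 1.84 (SE 0.19, adjusted p = 4.97e-10, edgeR) and rose by 0.89 from 5 to 30 min (adjusted p = 0.00131). That later step was 0.73 without culture 1 at 5 min (adjusted p = 0.0516) and without culture 2 at 30 min (adjusted p = 0.0656). EIF4G3, a scaffold that joins the cap to the small subunit through eIF3, was counted 99 and 36 times at 0 min, 746 and 1523 times at 5 min, 1126 and 965 times at 15 min, and 1049 and 1074 times at 30 min. It rose by 3.45 from 0 to 5 min (SE 0.24, adjusted p = 1.94e-13), the largest change of any listed initiation factor. Of 4 factors of recycling and related steps, 3 fell at each time, among them EIF6 (-2.02 at 5 min), which keeps the large subunit apart, and ABCE1 (-0.88), which splits ribosomes. By total counts alone 1 of the 4 fell at each time, and ABCE1 was at -0.14 at 5 min (adjusted p = 0.531). EIF5A2 had a difference of -0.58 that did not pass (adjusted p = 0.24).

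Most genes of the complexes built on the same plan as the eIF3 core fell. These lists too were chosen with earlier results of these data known, so their changes from 0 min are a description. Of 9 genes of the proteasome lid 8 fell at 5 min, 9 at 15 min and 8 at 30 min, with medians of -1.34, -1.34 and -1.63, beside 26%, 24.6% and 23.8% of all genes called lower. The ninth at 15 min, PSMD11 (-0.52, adjusted p = 0.0488), was not called with DESeq2 (adjusted p = 0.0846), with no filter (0.197) or with 1 library per cDNA (0.0799), nor with any culture but culture 1 at 0 min left out. At 5 min PSMD7, an MPN subunit of the lid, fell by 1.61 on the log2 scale, SHFM1, the most abundant, fell by 1.34, and PSMD13 fell most, by 2.11. PSMD11 (-0.08) did not pass at 5 min and was 0.66 by total counts alone. Of 9 genes of the COP9 signalosome 8 fell at each time, with medians of -1.73, -1.53 and -1.70. At 5 min COPS5, its MPN protease, fell by 1.90, COPS6 fell by 1.76 and COPS3 fell by 1.73, and COPS7B (-0.79, adjusted p = 0.121) did not pass. By total counts alone 5 of the 9 lid genes and 7 of the 9 signalosome genes fell at 5 min, and 1 lid gene rose. Of all 10439 genes, 1448 were called lower and 4461 higher under that scaling. Neither list held a gene with a log2 difference from 0 min as low as that of EIF3I.

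**Figure D5:**
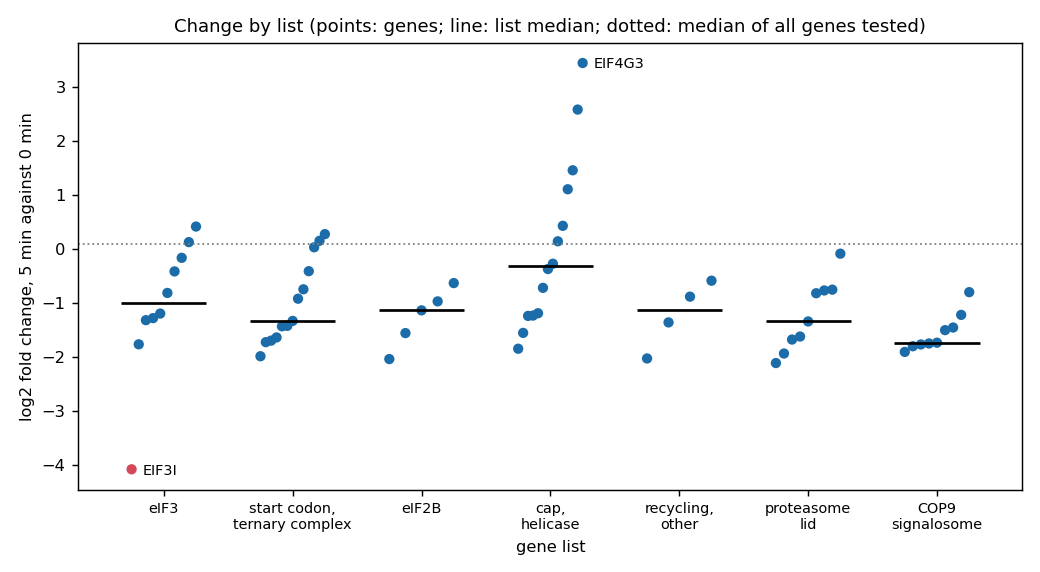
Log2 fold change from 0 to 5 min (y axis) of each tested gene in the eIF3 subunits, 4 groups of other initiation factors, the proteasome lid and the COP9 signalosome, with a line for each list's median and a dotted line for the median of all genes tested. EIF3I (-4.07) is the lowest point and EIF4G3 (3.45) the highest.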

How the data were processed

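The deposited values are raw counts per gene, not normalized, in 32 libraries. Per the submitters' processing notes, reads were aligned to hg19 with STAR; its version, the strand, and what 1 count stands for (read or molecule) are not given in the sources used here. Counts were summed to 8 cultures (2 per time, 4 libraries each). Replicate numbers did not pair the cultures: correlations of the difference between cultures across times ran from -0.04 to 0.08 over 8659 genes.

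Differences were tested two-sided with edgeR 4.0.16 in R 4.3.3 (quasi-likelihood F test, TMM, filterByExpr, 1 fit over 8 cultures, 4 residual degrees of freedom), with Benjamini-Hochberg adjustment over 10439 genes at 0.05. The coefficient of variation between cultures was 15.3%. The pipeline was also run on simulated data in which few genes changed and all shared 1 spread. That setting does not stand for the contrasts with 0 min, and nothing here rests on it. Alternatives were RLE size factors, total counts, no filter, DESeq2 1.42.0, a replicate block, 1 library per cDNA and leaving out each culture.

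Subunits and lists were chosen with earlier results of these data known. A test of EIF3I from 15 to 30 min was planned, and is given as a description because EIF3I was singled out over all times. Named genes are all subunits, the 2 most abundant and the highest and lowest at 5 min of each list, the neighbours of EIF3I and the 6 genes nearest to it (pseudocount 0.5 CPM). Transcript features come from GENCODE 29, from 1 principal transcript per gene.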

Additional observations from a re-analysis of the deposited data

How the results depend on the processing

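The gap between EIF3I and the median of the other 9 subunits was -3.26 at 5 min, -2.63 at 15 min and -3.20 at 30 min on the log2 scale. It kept its direction under the 14 alternatives run, which is a description, as EIF3I was singled out for this gap in the same values. A change of scaling moves EIF3I and the other 9 alike, so it could hardly alter the gap. Leaving out each culture gave -3.39 to -3.13, -2.90 to -2.41 and -3.58 to -2.89. Leaving out a culture leaves its time with 1 culture, assumed to vary like the others. Subunits called lower from 5 to 30 min (3) became 1 with total counts or with 1 library per cDNA, 5 with DESeq2, and 0 to 3 with a culture left out, and those from 15 to 30 min (3 with EIF3I counted) became 0 to 3 with a culture left out. Genes called among all tested numbered 162 from 5 to 15 min (96 by DESeq2, 69 to 273 with a culture left out), 1295 from 5 to 30 min (498 to 1627) and 526 from 15 to 30 min (143 to 659). The subunit counts from 15 to 30 min include EIF3I, whose contrasts are a description only. In the main fit 2 of the other 9 were called lower over that step. With the replicate block both counts of subunits stayed at 3, and the gap was -3.29, -2.66 and -3.23. The block moved no count of calls by more than 1.5 times. PSMD11 at 15 min (adjusted p = 0.0556, edgeR) and TMEM234 at 5 min (adjusted p = 0.0615) lost their calls with it. By total counts 75.5%, 78.9% and 80.9% of calls against 0 min were higher, beside 52.5%, 54.7% and 57.4%, and from 5 to 30 min 614 higher and 681 lower calls became 767 and 311, 551 and 1122 with RLE size factors, 691 and 414 with no filter, and 250 and 798 by DESeq2. By total counts EIF3D at 30 min turned to 0.37, EIF2B3 to 0.11 at 5 min and 0.067 at 15 min, PSMD11 to 0.66, 0.25 and 0.70 at 5, 15 and 30 min, and at 15 min EIF5B to 0.38, EIF2S3 to 0.74 and EIF5 to 0.12. The cause of these shifts was not tested. EIF3F at 0 min, with 25 and 55 counts, is the subunit where depth limits precision most.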

Other observations

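Among the other initiation factors, 3 genes chosen after their values were seen passed the test from 15 to 30 min. They were all that were called of the 36 tested, 2 higher and 1 lower. Of all genes tested, 2.26% were called higher and 2.78% lower over this step. EIF5, which makes eIF2 hydrolyse its GTP, stood at 145 and 142 CPM at 15 min and 331 and 291 CPM at 30 min. It rose by 1.12 on the log2 scale (SE 0.18, adjusted p = 0.000194, edgeR). EIF4A2, the second form of the helicase, stood at 144 and 176 CPM at 15 min and 298 and 327 CPM at 30 min, and rose by 0.97 (adjusted p = 0.000842). MCTS1, which acts with DENR in reinitiation, fell by 0.97 (adjusted p = 0.00395), a call lost without culture 2 at 15 min (adjusted p = 0.0874), without culture 1 at 30 min (0.0690) and without culture 2 at 30 min (0.0620). EIF4B and EIF4ENIF1, also chosen after their values were seen, were among the 4 of 36 called higher from 0 to 5 min. Of all genes tested, 28.7% were called higher. EIF4B rose by 1.46 (SE 0.21, adjusted p = 2.6e-07, edgeR) and EIF4ENIF1 by 2.59 (SE 0.42, adjusted p = 2.64e-06). EIF4ENIF1 had only 6 and 8 counts at 0 min, so its rise starts from near the floor.

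EIF3J-AS1, an RNA annotated opposite EIF3J, had 9 and 5 counts at 0 min, 5 and 9 at 5 min, 20 and 15 at 15 min, and 15 and 12 at 30 min. Its log2 differences from 0 min were -0.60, 0.30 and -0.20 (adjusted p = 0.528, 0.736 and 0.831, edgeR), and without strand in the counting it cannot be told apart from EIF3J where they overlap.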
